A study of Mus musculus with 9 samples.

Results

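Mouse embryonic fibroblasts that overexpressed p16 were compared with cells that had received the empty vector. The comparison uses 6 of the 9 libraries of the series, chosen by their titles: 3 p16 libraries and 3 empty-vector libraries, called control below, each group with replicates 1, 2 and 3. The other 3 libraries, of cells overexpressing p21, are not compared here. They entered the choice of genes to test, the scaling of the libraries and the estimate of the spread between replicates. All cells were of the C57BL/6 strain. The p16 cells had been given p16 with a lentivirus, RNA was extracted 10 days after overexpression, and the labels describe the cells at that time as senescent, the state of lasting arrest. Senescent is also the cell status tag of the 3 controls, despite their titles, while the p16 libraries carry no such tag and no lentivirus tag. The sources used here do not give the promoter of the vector, the share of cells that took it up, or whether the replicates were separate embryos or cultures. The p-values below therefore measure the spread between these libraries, part of which may be technical. The p16 samples were recorded apart from the controls, and a difference in preparation or sequencing, if there was one, cannot be told apart from p16.

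The 6 libraries held 60.8 to 76.1 M counts (M, 10 to the power 6), with reads on 16523 to 16759 genes per library. Of the 24062 genes in the table, 14572 were tested and 5608 had no read in any of the 6 libraries. Levels are given as CPM, counts per 1 M of the normalised library total, and lists of 3 values follow replicates 1, 2 and 3. The fibroblast label was checked on 15 fibroblast markers, whose summed level was 26500 to 37800 CPM in control and 32300 to 37000 CPM in p16 libraries. None of the 15 was called, that is, passed an adjusted p of 0.05, where 1 lay higher and 1 lower at an unadjusted p under 0.05 and DESeq2 called 1 higher. With the replicate number as a block 2 were called higher and 2 lower. The list is uneven: the matrix proteoglycan gene Dcn stood at only 1.56, 1.85 and 3.15 CPM in control and 2.25, 1.86 and 3.94 CPM in p16 libraries. The 20 macrophage and leukocyte markers summed to 16 to 18.7 and 12.3 to 18 CPM, and 8 of 11 erythroid markers had no read. Markers of other tissues were present: 17 cartilage and bone markers summed to 1350 to 2270 CPM in control and 1440 to 2000 CPM in p16 libraries, and 17 nerve and Schwann markers to 710 to 770 and 770 to 839 CPM. Col2a1, the collagen of cartilage, stood at 664, 861 and 1309 and 594, 659 and 1061 CPM (adjusted p = 0.593, 0.00719 with the block). None of the 12 tested cartilage and bone markers was called, and none reached an unadjusted p under 0.05 or a call with DESeq2, while 1 was called lower with the block. The third replicate of both groups was the odd one in sex-linked genes: Xist, which silences an X chromosome, reached 397 CPM there in control and 262 CPM in p16 cells, against 0.11 to 1.34 CPM in the other 4 libraries. Conversely, Ddx3y on the Y chromosome reached 50.1 to 68.5 CPM in these 4 but 1.1 and 1.26 CPM in replicate 3, so replicate 3 of each group had another source than replicates 1 and 2.

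The protein p16 binds the kinases CDK4 and CDK6 and keeps them from pairing with D-type cyclins. The retinoblastoma protein RB then stays unphosphorylated and holds back the E2F transcription factors, which drive the genes of DNA synthesis. Genes of mitosis are repressed in resting cells by a complex named DREAM, which reaches many of them through a promoter motif called the CHR, often near CCAAT boxes. Lasting arrest of fibroblasts is known for loss of lamin B1, more lysosomal mass and a changed set of secreted proteins.

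Promoter stretches are shown because the motifs in them are those textbooks name for the pathway. They were picked among genes that fell, so their fall is given by the choice. They are the 150 bases just upstream of the RefSeq start on GRCm38.p6 (the assembly also called mm10), written 5′ to 3′ on the strand of the gene. The CHR was looked for in the G2/M and mitosis list below, and the E2F site in the list of E2F and G1/S targets. Within each list, the genes called lower with the lowest adjusted p whose stretch holds the motif were taken, up to 4. Not all chromosomes entered this choice, so the printed genes need not be the first of their list. Capitals mark the CHR, TTTGAA, or an E2F site, any of TTTCCCGC, TTTGGCGC and TTTCGCGC, on either strand. The CHR stretches belong to Espl1, the protease that cuts cohesin (chr15:102296143-102296292, plus strand), Kif11, a spindle motor (chr19:37376232-37376381, plus strand), Mki67, the coat of mitotic chromosomes (chr7:135716380-135716529, minus strand), and Kif22, a chromosome-arm motor (chr7:127042421-127042570, minus strand).
Espl1: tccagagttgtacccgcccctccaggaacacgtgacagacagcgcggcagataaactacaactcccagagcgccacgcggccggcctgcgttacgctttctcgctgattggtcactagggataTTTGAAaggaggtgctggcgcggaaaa
Kif11: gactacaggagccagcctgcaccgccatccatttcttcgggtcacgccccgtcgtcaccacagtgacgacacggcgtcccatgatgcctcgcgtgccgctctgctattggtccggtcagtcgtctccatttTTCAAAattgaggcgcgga
Mki67: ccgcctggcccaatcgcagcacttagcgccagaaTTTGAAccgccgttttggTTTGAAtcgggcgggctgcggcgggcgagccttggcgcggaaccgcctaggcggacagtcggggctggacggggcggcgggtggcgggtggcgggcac
Kif22: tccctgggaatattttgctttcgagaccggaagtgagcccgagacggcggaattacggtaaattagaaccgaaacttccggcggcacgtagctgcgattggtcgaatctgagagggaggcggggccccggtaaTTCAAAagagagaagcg
The CHR began 27 bases before the start in Espl1, 19 in Kif11 and 17 in Kif22, and Mki67 held it at 116 and at 98 bases. All 4 stretches also held a CCAAT box. The E2F stretches belong to Cdca7, a chromatin factor of dividing cells (chr2:72476069-72476218, plus strand), Mcm5, a subunit of the replicative helicase (chr8:75109359-75109508, plus strand), and Cdc6, which loads that helicase (chr11:98908001-98908150, plus strand).
Cdca7: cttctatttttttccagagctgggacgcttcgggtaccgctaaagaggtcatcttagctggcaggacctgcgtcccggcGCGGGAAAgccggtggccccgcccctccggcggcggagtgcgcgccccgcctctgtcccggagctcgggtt
Mcm5: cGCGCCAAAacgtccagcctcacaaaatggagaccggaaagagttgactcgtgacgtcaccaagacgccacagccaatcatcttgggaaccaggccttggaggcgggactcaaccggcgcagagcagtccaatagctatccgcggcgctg
Cdc6: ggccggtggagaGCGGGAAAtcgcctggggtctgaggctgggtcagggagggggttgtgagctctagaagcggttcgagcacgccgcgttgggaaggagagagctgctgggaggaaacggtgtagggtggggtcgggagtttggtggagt
The site began 71 bases before the start in Cdca7, 149 in Mcm5 and 138 in Cdc6. These distances hold for the RefSeq starts. In GENCODE M21 Cdc6 begins at 98907801, so its whole stretch lies inside the gene there. The stretches of Espl1, Kif22 and Cdca7 overlap their GENCODE genes in part.

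The motifs were counted in windows of 300 bases, from 250 before to 50 after the start, on both strands, and a window with several motifs counts for each. Of 52 windows matched to the 65 tested G2/M genes, 69.2% held a CHR and 69.2% a CCAAT box (CCAAT), against 18.1% and 37.9% of all 27025 windows in the RefSeq table. Of 49 windows matched to the 60 G1/S genes, 40.8% held an E2F site, against 1.91% of all windows. The 431 windows matched to the 532 genes that fell held a CHR in 19%, a CCAAT box in 46.9% and an E2F site in 9.51%, and the 11388 windows matched to tested genes in 11.9%, 38.5% and 3.52%. In the G2/M list a CHR stood in 65.6% of the windows of genes that fell and 75% of those of genes not called, and in the G1/S list an E2F site in 35.3% and 43.8%. A window was matched for fewer than 80% of the tested genes, of the G2/M genes that fell, of the G1/S genes not called and of the genes that rose, so these shares are descriptions and the comparison is void. The matches describe letters, not sites in use.

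The overexpressed gene was read first. Cdkn2a (chromosome 4, 89274471 to 89294653, minus strand) stood at 60.8, 68.8 and 59.6 CPM in control and 1069, 1036 and 944 CPM in p16 libraries, far apart and without overlap. It was 16.1-fold higher in p16 cells (log2 fold change 4.01 ± 0.13 SE, adjusted p = 6.8e-07, edgeR's quasi-likelihood test with Benjamini-Hochberg adjustment over all tested genes, used throughout), and between 15.7 and 16.9-fold when single libraries were left out. The counts do not separate p16 from p19Arf, the other protein of this gene, or vector RNA from the cell's own. Cdkn2b, the neighbouring gene for the related inhibitor p15 (chromosome 4, 89306299 to 89311039, minus strand), also rose, from 42.7, 44.9 and 39.5 to 63.7, 66.9 and 58 CPM (1.48-fold, 0.57 ± 0.08 SE, adjusted p = 0.00724). Other well-measured genes within 1 Mb of Cdkn2a were not called: Mtap, an enzyme of methionine salvage, had a log2 fold change of -0.02 (adjusted p = 0.943), Focad -0.02 (0.872) and Klhl9 0.06 (0.647).

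Of the other 6 CDK inhibitor genes, 1 was called. Here and below, a value after the adjusted p and a semicolon is the adjusted p with the named libraries left out, where that ended the call. Cdkn2d, which encodes p19INK4d, fell from 15.2, 14.4 and 15 to 11.3, 10.4 and 11.9 CPM (adjusted p = 0.0148; 0.0572 without p16 replicate 1 and 0.0707 without p16 replicate 2). The p21 gene Cdkn1a overlapped between the groups, with 399, 383 and 317 CPM in control and 429, 435 and 394 CPM in p16 libraries (log2 fold change 0.20 ± 0.09 SE, adjusted p = 0.2). It passed as higher when same-numbered libraries were treated as pairs, with the replicate number as a block (adjusted p = 0.0308). The p18 gene Cdkn2c and the p27 gene Cdkn1b lay below all control libraries in the 3 p16 libraries, at log2 fold changes of -0.50 and -0.32, without passing (adjusted p = 0.0745 and 0.106; 0.0125 and 0.00465 with the block).

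Of the genes for the D cyclins, CDK4, CDK6 and RB, Ccnd2 alone was called. It encodes cyclin D2 and rose from 783, 809 and 716 CPM in control to 1105, 1180 and 1047 CPM in p16 libraries (1.44-fold, 0.53 ± 0.07 SE, adjusted p = 0.00523), with all p16 libraries above all controls. Cyclin D1 (Ccnd1) stood at 459, 373 and 295 and 489.6, 545 and 388 CPM, overlapping (adjusted p = 0.285, and 0.0128 with the block), and replicate 3 was the lowest of both groups. Cdk4 stood at 300.3, 289 and 282 and 275, 262 and 268 CPM (log2 fold change -0.11 ± 0.04 SE, adjusted p = 0.13), and Cdk6 at 11, 10.9 and 9.48 and 10.6, 12.3 and 10.2 CPM (adjusted p = 0.681). The retinoblastoma gene Rb1 had 10.8, 13 and 11.9 and 13.1, 13.1 and 11.4 CPM (adjusted p = 0.689). E2f1 and the cyclin E gene Ccne1, classic targets of E2F, were not called (log2 fold changes 0.03 and 0.26, adjusted p = 0.877 and 0.237), whereas Ccne1 passed, as higher, without control replicate 1 (0.0439). E2f8, an E2F that represses, fell 1.5-fold (adjusted p = 0.0287; 0.0637 to 0.095 without each of control replicates 1 and 2 and p16 replicates 1, 2 and 3). Of 51 cyclin, CDK and pocket protein genes in all, 4 rose and 5 fell (7 and 8 with the block). The rises numbered 1 without p16 replicate 2 and 2 without p16 replicate 1, and the falls 1 without each of p16 replicates 1, 2 and 3, 2 without control replicate 2 and 3 without control replicate 1.

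**Figure D1:**
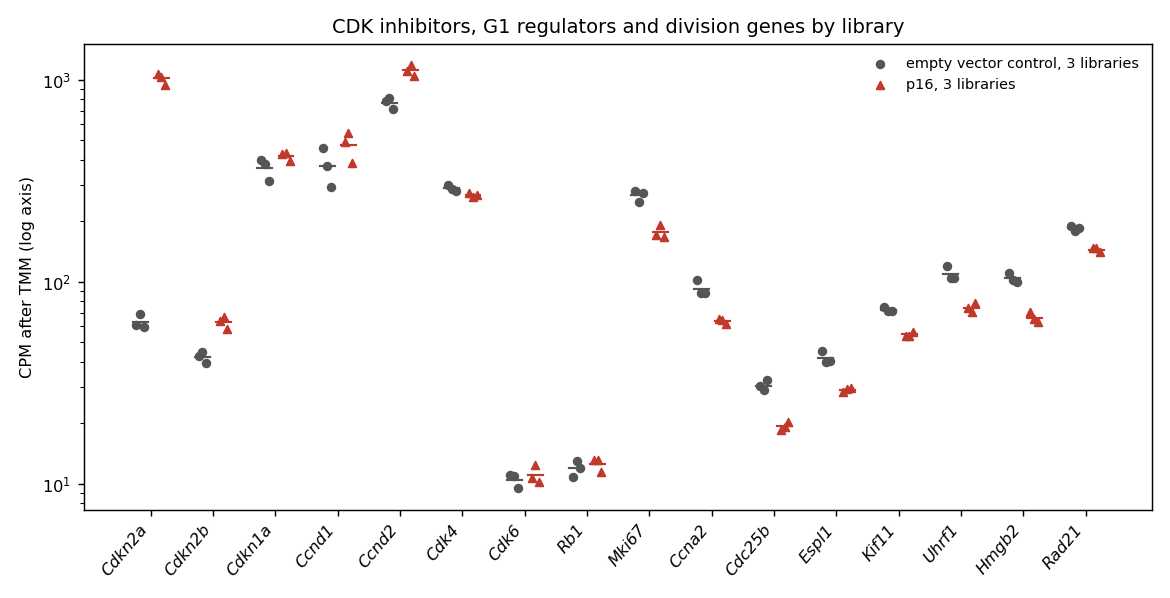
CPM after TMM normalisation, on a log axis, of 16 genes in each of 3 control libraries (grey circles) and 3 p16 libraries (red triangles), with a short line at each group mean. Cdkn2a lies 16.1-fold higher in p16 cells, Cdkn2b and Ccnd2 higher without overlap, Cdkn1a, Ccnd1, Cdk6 and Rb1 overlap, Cdk4 lies slightly lower without a call, and the 8 division and chromatin genes from Mki67 to Rad21 lie below all control libraries.

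Across all genes the response was broad and small. Of the 14572 genes tested, 1052 were called (7.22%), 520 higher in p16 cells (3.57%) and 532 lower (3.65%). Counts of calls in a list are to be read beside these shares. Most called genes, 863 of 1052, changed less than 1.5-fold. At least 2-fold rises numbered 61 (0.419%) and falls of that size 9 (0.0618%), and 25 of the 61 had a mean under 1 CPM even in p16 cells. The 3 p16 libraries lay wholly above or below the 3 controls in 28.7% of tested genes, and in all 1052 called genes. Lack of overlap, where stated for a called gene, therefore sets it apart from no other called gene. The median log2 fold change was 0.40 among genes that rose, -0.32 among genes that fell and -0.01 over all genes. Scaling by library size alone called 444 higher and 683 lower. With the replicate number as a block, 2473 genes were called, 1252 higher and 1221 lower, among them all 1052. Each fit without a single library, which has fewer degrees of freedom, called fewer genes. The calls numbered 222 without p16 replicate 2, 284 without p16 replicate 1, 375 without control replicate 2 and 425 without p16 replicate 3. No called gene changed its direction in any alternative, which the lack of overlap largely fixed in advance.

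**Figure D2:**
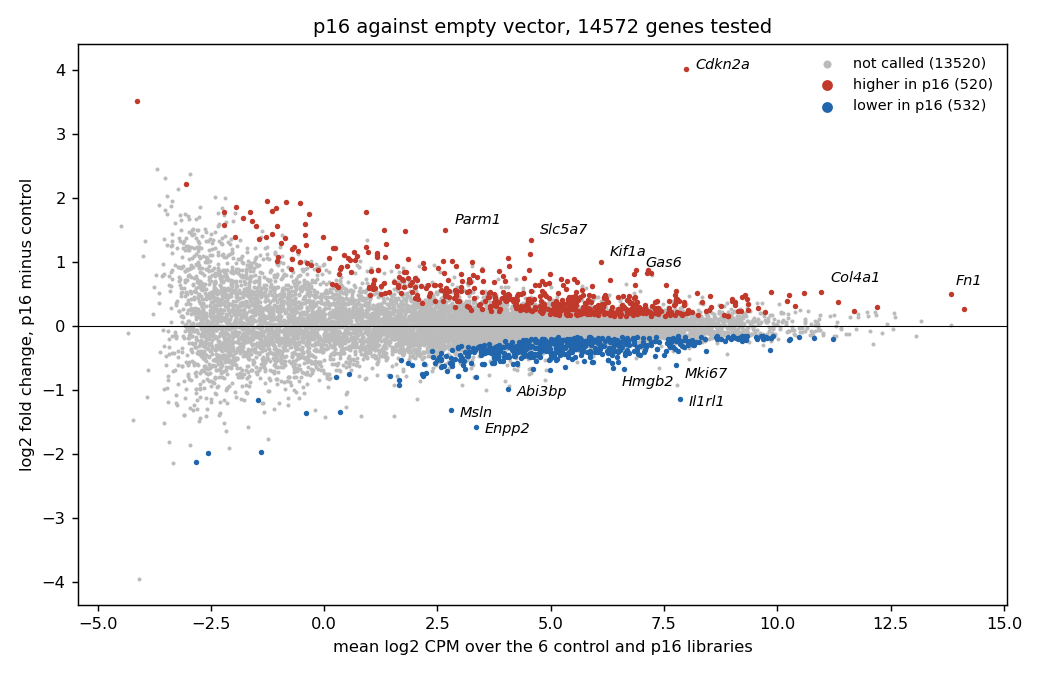
Log2 fold change of p16 minus control (vertical) against mean log2 CPM over the 6 libraries (horizontal) for the 14572 tested genes, red where higher in p16 cells (520), blue where lower (532), grey where not called. Cdkn2a stands highest, at a log2 fold change of 4.01, and nearly all other called genes lie between -2 and 2.

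Genes of cell division fell together. Where a list below is said to hold no rise or no fall, at most 3 genes reached an unadjusted p under 0.05 in that direction and DESeq2 called at most 1, unless other counts stand beside it. Of 65 G2/M and mitosis genes 42 fell and none rose, and the log2 fold changes of all 65 were below 0, with a median of -0.36 against -0.01 over all genes. Mki67, the proliferation antigen, stood at 281, 247 and 275 CPM in control and 171, 191 and 167 CPM in p16 libraries, 1.52-fold lower (-0.60 ± 0.09 SE, adjusted p = 0.00774). Cdc25b, a phosphatase that starts mitosis, fell furthest in the list, from 30.3, 29.1 and 32.4 to 18.5, 19 and 20.2 CPM (1.59-fold, adjusted p = 0.00209). The spread within each group was smaller than these gaps. Ccna2, which encodes cyclin A2, fell 1.44-fold from 101, 88 and 87.7 to 65.4, 64.9 and 61.8 CPM. Espl1, whose promoter is printed above, fell from 45.2, 39.9 and 40.7 to 28.4, 29.4 and 29.9 CPM (1.43-fold), and Kif11 from 74.6, 71.9 and 71.5 to 54.1, 54.1 and 56.1 CPM (1.33-fold). Both lay in p16 libraries below every control. Spc24, of the outer kinetochore, fell 1.5-fold (-0.58 ± 0.08 SE, adjusted p = 0.00648). The topoisomerase gene Top2a stood at 272, 240.3 and 259.9 and 194, 202 and 198 CPM (1.3-fold lower, adjusted p = 0.026; 0.0527 to 0.102 without each of control replicates 1, 2 and 3 and p16 replicates 1, 2 and 3). Kif22 fell 1.4-fold (adjusted p = 0.0148; 0.0507 without p16 replicate 1 and 0.0716 without p16 replicate 2). In all, 57 of the 65 lay below all controls in the 3 p16 libraries. Calls in the list numbered 8 without each of p16 replicates 1 and 2, 17 without p16 replicate 3 and 20 without control replicate 2.

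Genes that E2F switches on before DNA synthesis lay on the same side. Of 60 E2F and G1/S targets 18 fell, none rose and 57 had a negative log2 fold change, with a median of -0.34. Uhrf1, which keeps DNA methylation in place after replication, stood at 120.1, 104 and 104 and 73.7, 70.9 and 78.3 CPM (1.48-fold lower, adjusted p = 0.00669). Mybl2, a transcription factor of the MYB family, fell furthest, from 48.6, 37.1 and 35.4 to 28.1, 23.7 and 23.6 CPM (1.61-fold, adjusted p = 0.0123; 0.0637 without p16 replicate 2). Mcm5 fell 1.36-fold (adjusted p = 0.0291; 0.0608 to 0.102 without each of control replicate 2 and p16 replicates 1, 2 and 3) and Cdc6 1.45-fold (0.0317; 0.0865 to 0.113 without each of p16 replicates 1, 2 and 3). For both, the p16 libraries lay below all controls. Cdca7, the third of the E2F stretches, went from 20.8, 18.1 and 19.2 to 15, 13.7 and 13.7 CPM (1.37-fold, adjusted p = 0.00945; 0.0516 without p16 replicate 2). Rrm1, the large subunit of ribonucleotide reductase, was not called (278, 228 and 208 and 205, 213 and 199 CPM, adjusted p = 0.232): control replicates 1 and 2 lay above all p16 libraries, and control replicate 3 within their range. With the replicate block 34 of the 60 fell. Calls in the list numbered 1 without p16 replicate 2, 4 without p16 replicate 1, 7 without p16 replicate 3 and 8 without control replicate 2.

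Chromosome structure and repair genes fell with them. Of 20 condensin and cohesin genes 12 fell and none rose (median -0.28). Rad21, the cohesin subunit that Espl1 cuts, stood at 188, 179 and 185 and 147, 146 and 140.0 CPM (1.28-fold lower, adjusted p = 0.00745). Of 65 DNA repair genes 11 fell and none rose (median -0.19, 20 with the block). H2afx, the histone variant phosphorylated at DNA breaks, stood at 75.6, 68.5 and 68.9 and 55.5, 57.3 and 55 CPM (1.27-fold lower, adjusted p = 0.00923), and the ligase gene Lig3 fell 1.2-fold (adjusted p = 0.0104). In neither gene did the groups overlap. Wdhd1, a replisome factor, fell 1.37-fold (adjusted p = 0.00363) and Rcc2, a mitotic chromosome protein, 1.28-fold (0.00363). Iqgap3, a scaffold protein, went from 51.4, 47.7 and 50.2 to 31.1, 32 and 33.1 CPM (1.55-fold, adjusted p = 0.00363). Calls in the condensin and cohesin list numbered 2 without each of p16 replicates 1 and 2, 5 without p16 replicate 3 and 7 without control replicate 2, and in the repair list 2 without each of p16 replicates 1 and 2 and 4 without each of control replicates 1 and 2 and p16 replicate 3.

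Proteins that shape the nucleus and its chromatin fell in part. Of 25 lamina and HMG genes 9 fell and none rose (median -0.23), 15 with the block and 5 without p16 replicate 2. Lmnb1, which encodes lamin B1, stood at 105, 87.7 and 83.6 and 63.4, 68.9 and 60.4 CPM (1.43-fold lower, -0.52 ± 0.10 SE, adjusted p = 0.0176; 0.066 without p16 replicate 1 and 0.0592 without p16 replicate 3). Lmnb2, for lamin B2, fell from 38.9, 37.5 and 38.4 to 28.2, 25.8 and 30.9 CPM (1.35-fold, adjusted p = 0.00774). Lmna, for the A-type lamins, was not called (1078, 1040 and 996 and 989, 954 and 899 CPM, adjusted p = 0.193, 0.0396 with the block), though its p16 libraries also lay below all controls. Among the HMG box proteins, which bend DNA, Hmgb2 fell from 110.1, 102 and 99.2 to 70.4, 65.2 and 63.1 CPM (1.57-fold, adjusted p = 0.00523). Hmgb3 fell 1.44-fold (adjusted p = 0.00523), and Hmgb1 1.31-fold (0.0112; 0.0629 without p16 replicate 2). Tmpo, a lamin-binding protein gene, went from 129, 108 and 112 to 86.3, 86.7 and 81.2 CPM (1.37-fold lower, adjusted p = 0.0103). Of 23 polycomb genes 2 fell, Phf19 by 1.59-fold (adjusted p = 0.0176; 0.0591 without p16 replicate 2) and Phc1 by 1.31-fold (0.0106; 0.0529 without p16 replicate 1 and 0.0564 without p16 replicate 2); with the block 3 fell.

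Some replication-dependent histone genes rose. Of 36 tested 9 rose and none fell, 21 had a positive and 15 a negative log2 fold change (median 0.18), while 28 more of the list were too low to test. Hist1h2bc, an H2B gene, rose from 31.4, 34.2 and 31.1 to 54.6, 51.2 and 52.7 CPM (1.64-fold, 0.71 ± 0.07 SE, adjusted p = 0.00256). The linker histone gene Hist1h1c rose 1.43-fold (adjusted p = 0.00523). Hist1h2ab, Hist1h3b and Hist1h4h rose 2.43, 2.36 and 2.16-fold (adjusted p = 0.00486, 0.00669 and 0.0118) at 4.01 ± 0.0967, 2.91 ± 0.255 and 1.95 ± 0.268 CPM in p16 cells (mean ± SD, n = 3). Calls in the list numbered 5 without each of control replicate 2 and p16 replicates 1, 2 and 3. Most messages of this class carry no poly(A) tail, and near-identical copies share reads, so single members are uncertain.

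Genes for RNA handling and translation fell by small amounts. Of 43 splicing factor genes 20 fell and none rose (median -0.20, 28 with the block). Hnrnpd, which encodes the RNA-binding protein AUF1, stood at 148, 135 and 141 and 106, 104 and 103 CPM (1.35-fold lower, adjusted p = 0.00325), and Hnrnpa0 at 216, 219 and 218 and 175, 171 and 186 CPM (1.23-fold, 0.00746). The groups did not overlap in either. Of 79 cytosolic ribosomal protein genes 33 fell, none rose and 78 had a negative log2 fold change, with a median of only -0.15. The falls numbered 52 with the block, 56 with DESeq2 and 5 with the 6 libraries alone. Rpl3, of the large subunit, stood at 1329, 1300 and 1292 and 1142, 1114 and 1137 CPM (1.16-fold lower, adjusted p = 0.0148; 0.055 to 0.0724 without each of control replicate 2 and p16 replicates 1, 2 and 3). Ribosomal protein genes have many processed copies that can share reads. Tcof1, a factor of ribosomal RNA synthesis, fell from 112, 94.9 and 104 to 79.4, 76.9 and 78.4 CPM (1.32-fold, adjusted p = 0.00923), as 1 of 6 falls among 51 ribosome biogenesis genes (21 with the block). Calls changed when single libraries were left out, which also takes away degrees of freedom. The splicing list numbered 2 without p16 replicate 2, 3 without p16 replicate 1, 6 without p16 replicate 3 and 8 without control replicate 2. The ribosomal list numbered 0 without each of control replicate 2 and p16 replicates 1 and 2, and 4 without p16 replicate 3. It numbered 7 without control replicate 3 and 9 without control replicate 1. The biogenesis list numbered 1 without each of p16 replicates 1 and 2, 2 without p16 replicate 3 and 3 without control replicate 2. Mitochondrial ribosome and respiratory chain genes gave 1 fall each, of 76 and 75 tested (13 and 4 with the block), Mrps5 (1.27-fold, adjusted p = 0.027; 0.0518 to 0.0865 without each of control replicate 1 and p16 replicates 1, 2 and 3) and Cox5b (1.15-fold, 0.0456; 0.078 to 0.174 without each of control replicates 1, 2 and 3 and p16 replicates 1, 2 and 3), and none of 41 proteasome genes was called (2 lower at an unadjusted p under 0.05, 1 with DESeq2 and 1 with the block). The falls in the 2 mitochondrial lists are 1.32% and 1.33%, below the 3.65% over all tested genes.

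Many lysosomal genes rose. Of 48 genes for lysosomal hydrolases and membrane proteins 17 rose and none fell, 43 had a positive log2 fold change, and the median was 0.18. Asah1, acid ceramidase, stood at 213, 228 and 216 and 266, 283 and 274 CPM (1.25-fold higher, adjusted p = 0.00681). Glb1, the lysosomal beta-galactosidase behind the common stain for senescence, stood at 50.5, 53.6 and 52.4 and 68.8, 67.1 and 66.8 CPM (1.3-fold, 0.37 ± 0.05 SE, adjusted p = 0.00745). Aga, which cleaves sugar chains from asparagine, rose the most in the list, 1.38-fold (adjusted p = 0.0147; 0.0597 without p16 replicate 2). Of 15 cathepsins, the proteases of that compartment, 4 rose and none fell (9 with the block). Ctsd rose from 553, 545 and 496 to 748, 758 and 727 CPM (1.4-fold, adjusted p = 0.00523), Ctsl 1.24-fold (0.00776) and Ctsf 1.62-fold (0.00885). No p16 library fell within the control range for these 3 genes. Of 41 genes for the proton pump, its regulators and autophagy 6 rose (18 with the block), among them Map1lc3b, the LC3 protein of autophagosomes (107, 114 and 111 and 139, 135 and 137 CPM, 1.24-fold, adjusted p = 0.0079). The autophagy receptor gene Sqstm1 was not called (log2 fold change 0.20, adjusted p = 0.0657, 0.0158 with the block). Calls in the hydrolase list numbered 2 without p16 replicate 2, 5 without each of control replicate 2 and p16 replicate 1, 8 without p16 replicate 3, 9 without control replicate 3 and 11 without control replicate 1, and 10 when scaled by library size, and in the pump and autophagy list 1 without each of control replicate 2 and p16 replicates 1 and 2.

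Secreted factors of the kind linked to senescence moved unevenly. Of 32 inflammatory cytokine genes 2 rose (6, and 2 falls, with the block). Cxcl14, a chemokine, stood at 20.1, 25.6 and 25.8 and 46.4, 37.6 and 41.7 CPM (1.76-fold higher, adjusted p = 0.0124; 0.0511 without p16 replicate 1), and Ccl17 rose 2.1-fold at 1.55 ± 0.121 CPM in p16 cells (mean ± SD, n = 3; adjusted p = 0.0463; 0.085 to 0.14 without each of control replicates 2 and 3 and p16 replicates 1, 2 and 3). Il6, the archetype of these cytokines, was low, with 1.24, 0.962 and 1.44 and 2.23, 2.45 and 2.66 CPM. All p16 libraries lay above all controls for Il6, at a log2 fold change of 1.01 ± 0.27 SE, but it did not pass (adjusted p = 0.0541, and 0.00693 with the block). Ccl2 stood at 27.6, 29.6 and 28.5 and 34.7, 32.4 and 30.8 CPM (adjusted p = 0.0996), and the neutrophil chemokine gene Cxcl1 at 1.38, 0.316 and 0.823 and 1.62, 0.176 and 0.581 CPM (adjusted p = 0.95). Gdf15, a stress hormone, rose 1.37-fold (adjusted p = 0.0378; 0.0769 to 0.133 without each of control replicates 2 and 3 and p16 replicates 1, 2 and 3). Gas6, the ligand of the AXL receptor, rose from 89.8, 79.7 and 93.6 to 157, 147 and 179 CPM (1.83-fold, 0.88 ± 0.11 SE, adjusted p = 0.00523), and Axl itself overlapped (1189, 999 and 857 and 1107, 1188 and 942 CPM, adjusted p = 0.745). Immune lists gave no call. Of 21 complement genes 3 were higher at an unadjusted p under 0.05, 2 with DESeq2 and 7 with the block. Of 37 interferon response genes 3 were higher at that unadjusted p, and 0 with DESeq2 or the block. Of 32 antigen presentation genes 5 were higher and 1 lower at that p, 0 with DESeq2 and 2 with the block.

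Protease inhibitors and binding proteins supplied more of the secreted changes. Of 31 metalloproteinase and TIMP genes 4 rose and none fell (median 0.22, 11 with the block). Timp2 stood at 977, 1064 and 1043 and 1287, 1389 and 1387 CPM (1.32-fold higher, adjusted p = 0.00587), Timp1 at 588, 626 and 532 and 764, 747 and 714 CPM (1.27-fold, 0.0157; 0.0582 without p16 replicate 1 and 0.0635 without p16 replicate 2), and the stromelysin gene Mmp3 at 1.29, 0.824 and 0.446 and 1.1, 1.29 and 1.29 CPM without a call (0.4). Both inhibitors were higher in all p16 libraries than in any control. Of 20 serpin and plasminogen genes 4 rose (median 0.27, 13 with the block). Serpini1, neuroserpin, rose 2.06-fold to 1.88, 2.21 and 2.18 CPM (adjusted p = 0.00703), and Serpinb9b, whose close copies may share reads, 2.1-fold (0.00746). Of 20 genes of the IGF system 2 rose and 1 fell (6 and 2 with the block). Igfbp7 rose 1.3-fold (adjusted p = 0.0183; 0.0568 without p16 replicate 2 and 0.0522 without p16 replicate 3), and so did Pappa, a protease that frees IGF, 1.83-fold (0.0239; 0.0507 to 0.0846 without each of control replicate 2 and p16 replicates 1, 2 and 3). Irs2, an adaptor of the insulin receptor, fell 1.5-fold (0.0237; 0.0573 to 0.0827 without each of control replicates 2 and 3 and p16 replicates 1 and 2), and Igfbp3 did not pass (7.93, 6.62 and 8.83 and 9.72, 10.2 and 13.6 CPM, 0.0539, 0.00667 with the block). Calls in the metalloproteinase list numbered 1 without p16 replicate 2, 2 without each of control replicate 2 and p16 replicate 1 and 7 without control replicate 1, and in the serpin list 2 without each of control replicate 2 and p16 replicates 1, 2 and 3.

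Several basement membrane and adhesion genes rose. Of 45 collagen and collagen-modifying genes 5 rose and none fell (median 0.08, 13 with the block). Col4a1 and Col4a2, the paired chains of type IV collagen, stood at 1805, 1649 and 1523 and 1327, 1307 and 1246 CPM in control and at 2385, 2494 and 2327 and 1791, 1883 and 1858 CPM in p16 libraries (1.45 and 1.43-fold higher, adjusted p = 0.00609 and 0.00259). Col4a5, another type IV chain, rose from 163, 150.4 and 137 to 230.4, 260.0 and 215 CPM (1.56-fold, 0.65 ± 0.09 SE, adjusted p = 0.00753), and Col8a1 1.32-fold (0.00536). In all 4 genes each p16 library lay above each control. Col1a1, the main fibrillar collagen, overlapped at 10878, 15509 and 17253 and 14036, 13988 and 16234 CPM (log2 fold change 0.02, adjusted p = 0.951). Ecm1, a matrix glycoprotein, rose from 234, 253 and 259.6 to 347, 356 and 366 CPM (1.43-fold, adjusted p = 0.00293), and Fn1, fibronectin, from 10084, 12972 and 14293 to 15599, 18778 and 18314 CPM (1.41-fold, 0.0364; 0.053 to 0.13 without each of control replicate 2 and p16 replicates 1, 2 and 3). Abi3bp, another matrix glycoprotein, was the fall among 54 such genes of which 5 rose (10 rises and 4 falls with the block): it stood at 23.5, 22.2 and 24.3 and 12.2, 11.5 and 11.9 CPM (1.97-fold lower, adjusted p = 0.00209). That fall is 1.85% of the list, below the 3.65% over all tested genes. Mfap5, a microfibril protein, rose 1.57-fold (adjusted p = 0.00776). The fibronectin receptor subunit Itgb1 stood at 2365, 2385 and 2118 and 2965, 3123 and 2853 CPM (1.3-fold higher, adjusted p = 0.00885), and Itgb3 rose 1.24-fold (0.0109). Of 35 integrin and cadherin genes 4 rose and 2 fell, 11 rises with the block. These are 11.4% and 5.71%, against 3.57% and 3.65% over all tested genes. Calls in the glycoprotein list numbered 1 without p16 replicate 3, 2 without each of control replicate 2 and p16 replicate 2 and 3 without each of control replicate 3 and p16 replicate 1 for the rises, and in the integrin list 2 without each of p16 replicates 1 and 2 for the rises and 0 without each of control replicate 2 and p16 replicates 1 and 2 and 1 without each of control replicate 3 and p16 replicate 3 for the falls.

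Contractile genes rose as a subset. Of 41 contractile and myofibroblast genes 7 rose and none fell (median 0.07; 15 rises and 2 falls with the block). Myh11, smooth muscle myosin, rose from 58.8, 56.7 and 69 to 92.1, 103 and 109 CPM (1.65-fold, adjusted p = 0.00669), and Des, desmin, from 79.8, 105 and 77 to 158, 154 and 148 CPM (1.76-fold, 0.00703). Actg2, enteric actin, rose 1.38-fold (adjusted p = 0.00776), Ldb3, a Z-disc protein, 1.41-fold (0.00939), and Acta1, skeletal actin, 1.77-fold (0.0102) from 136, 104 and 98.9 to 207, 193 and 199 CPM. Acta2, the smooth muscle actin of myofibroblasts, was not called (6194, 5844 and 5530 and 6424, 6684 and 6373 CPM, adjusted p = 0.368). Rgs5, a pericyte marker that dampens G-protein signals, rose 1.84-fold, from 7.69, 7.93 and 9.2 to 16.6, 14.3 and 14.8 CPM (adjusted p = 0.00363). Of 10 tested pericyte and smooth muscle markers 4 rose (2 without each of control replicate 2 and p16 replicates 2 and 3, and 2 with the 6 libraries alone), and the 12 in the table summed to 1370 to 1410 CPM in control and 1580 to 1600 CPM in p16 libraries. The 21 skeletal muscle markers summed to 184 to 225 and 356 to 374 CPM, of which Acta1 and Des gave most, while Myog, Myf5 and Myh8 had no read and Myod1 at most 0.0581 CPM. The 15 endothelial markers summed to 48.9 to 52.6 and 55.1 to 64.9 CPM, with Sox17 at no read, and 2 of the 11 tested rose. These were Emcn, endomucin (1.34, 1.76 and 1.38 and 2.88, 4.33 and 5.44 CPM, 2.82-fold, adjusted p = 0.0252; 0.0595 to 0.0896 without each of control replicates 1, 2 and 3 and p16 replicates 2 and 3), and Eng, endoglin (35.5 ± 2.29 and 43.3 ± 3.01 CPM, mean ± SD, n = 3, 1.22-fold, 0.0338; 0.0504 to 0.119 without each of control replicates 2 and 3 and p16 replicates 2 and 3). Erg, another marker of this list, went the other way without a call, at 0.978, 1.14 and 2.05 and 0.361, 0.469 and 0.843 CPM. Of the 11 tested, 7 had a positive and 4 a negative log2 fold change, and 1 was called lower with DESeq2 or the block. Pecam1, a defining endothelial marker, was near 0 at 0.0522, 0.0275 and 0.112 and 0.328, 0.161 and 0.218 CPM and not called (0.0782). Whether a few such cells had a part in these rises was not tested, and more cells of a type cannot be told apart from more RNA per cell.

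**Figure D3:**
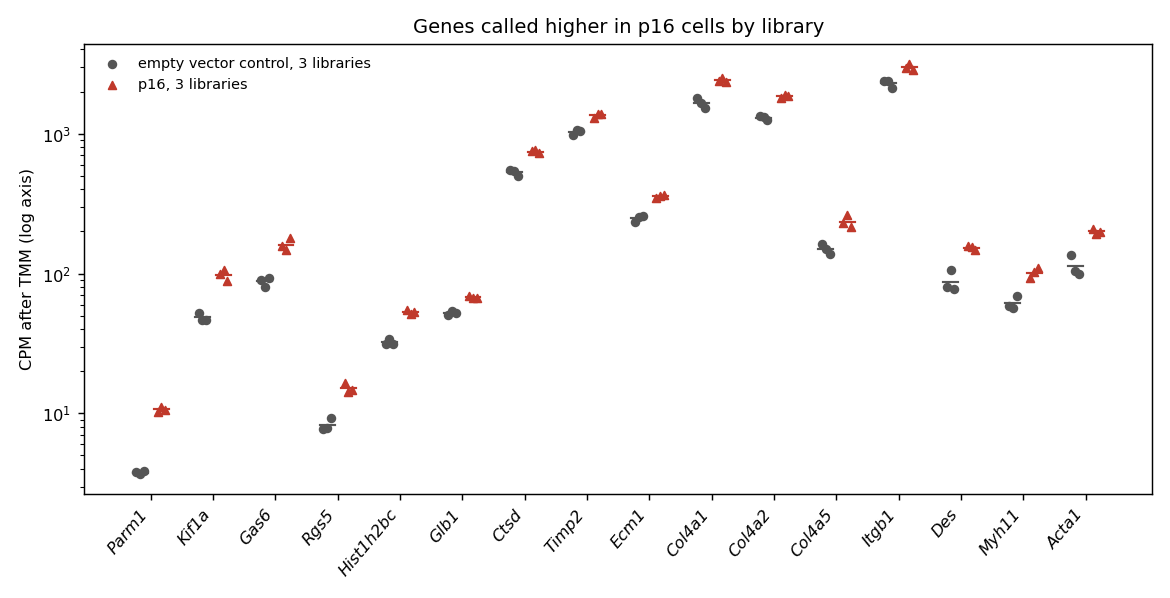
CPM after TMM normalisation, on a log axis, of 16 genes that rose in p16 cells, in 3 control libraries (grey circles) and 3 p16 libraries (red triangles), with a line at each group mean. Each p16 library lies above each control for every gene shown, from Parm1 at 2.83-fold to Glb1 at 1.3-fold.

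The largest rises after Cdkn2a, leaving aside genes whose log2 CPM averaged under 2, were in genes of differing function. Parm1, a membrane mucin-like protein, stood at 3.78, 3.7 and 3.85 and 10.3, 11.1 and 10.6 CPM (2.83-fold higher, adjusted p = 1.94e-05), the lowest adjusted p after Cdkn2a. Slc5a7, the choline transporter of cholinergic neurons, rose from 16.2, 16 and 12.7 to 44.1, 41.3 and 29 CPM (2.54-fold, adjusted p = 0.00867), with p16 replicate 3 the lowest of its group. Mgll, which breaks down monoacylglycerols, rose 2.18-fold (adjusted p = 0.00667). Kif1a, an axonal transport motor, rose from 52, 46.8 and 46.6 to 98.6, 105 and 87.9 CPM (2.01-fold, adjusted p = 0.00226). Gja3, a gap junction protein of the lens, rose 2.03-fold (adjusted p = 0.00442), the protocadherin gene Pcdh1 1.98-fold (0.00611) and Whrn, a scaffold of hair-cell stereocilia, 1.88-fold (0.00986). Each of these kept its call in every alternative. Prkar1b, a regulatory subunit of protein kinase A, rose from 21.7, 24.8 and 23.7 to 36.5, 36.8 and 37.9 CPM (1.58-fold, adjusted p = 0.00165). Gpnmb, a glycoprotein of lysosomes and the cell surface, rose 1.92-fold (adjusted p = 0.0256; 0.0522 to 0.0883 without each of control replicates 2 and 3 and p16 replicates 1, 2 and 3), and the sulfotransferase gene Chst12 1.33-fold (0.00259).

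The largest falls included surface and secreted proteins. Enpp2, autotaxin, which makes lysophosphatidic acid, stood at 13.6, 18.7 and 21.2 CPM in control and 6.46, 4.11 and 7.46 CPM in p16 libraries (2.97-fold lower, -1.57 ± 0.27 SE, adjusted p = 0.0127; 0.0507 without p16 replicate 1 and 0.0547 without p16 replicate 2). Msln, mesothelin, fell from 10.8, 10.0 and 11.9 to 4.62, 4.09 and 4.52 CPM (2.47-fold, adjusted p = 0.000569). It is also a mesothelial marker, the only one called of 11 tested. The 12 in the table summed to 142 to 190 CPM in control and 143 to 186 CPM in p16 libraries. Igfbp5 was the most abundant of them, at a mean of 75.3 CPM in control and 88.5 CPM in p16 libraries. As 6 of the 12 stayed under 1 CPM in every library, the sum says little about the rarer markers. Il1rl1, the receptor of interleukin 33, stood at 354, 366 and 321 and 215, 132 and 124 CPM, with p16 replicate 1 nearest to the controls (2.21-fold lower, adjusted p = 0.0206; 0.0647 to 0.0958 without each of control replicate 2 and p16 replicates 2 and 3). Fndc4, a secreted fibronectin-domain protein, fell 1.74-fold, from 14.4, 12.3 and 13.7 to 7.78, 7.26 and 8.24 CPM (adjusted p = 0.00546). Efna1, an ephrin ligand, fell 1.67-fold (0.0104) and Arhgap22, a Rac regulator, 1.51-fold (0.00241). Runx3, a transcription factor of cartilage and T cells, fell 1.71-fold (adjusted p = 0.014; 0.0547 without p16 replicate 1 and 0.0713 without p16 replicate 2), and the water channel gene Aqp1 1.59-fold, from 130.2, 119 and 121 to 92, 78.3 and 62.9 CPM (0.0176; 0.0724 without p16 replicate 2). Kcnn4, a calcium-gated potassium channel of dividing cells, fell from 15.8, 14.9 and 17 to 11.1, 10.2 and 10.8 CPM (1.49-fold, 0.00523). Of the 9 genes that fell at least 2-fold, Msln alone kept its call in every alternative, and Opcml, AI848285, Gdf5 and Npr1 had a mean under 1 CPM in both groups.

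**Figure D4:**
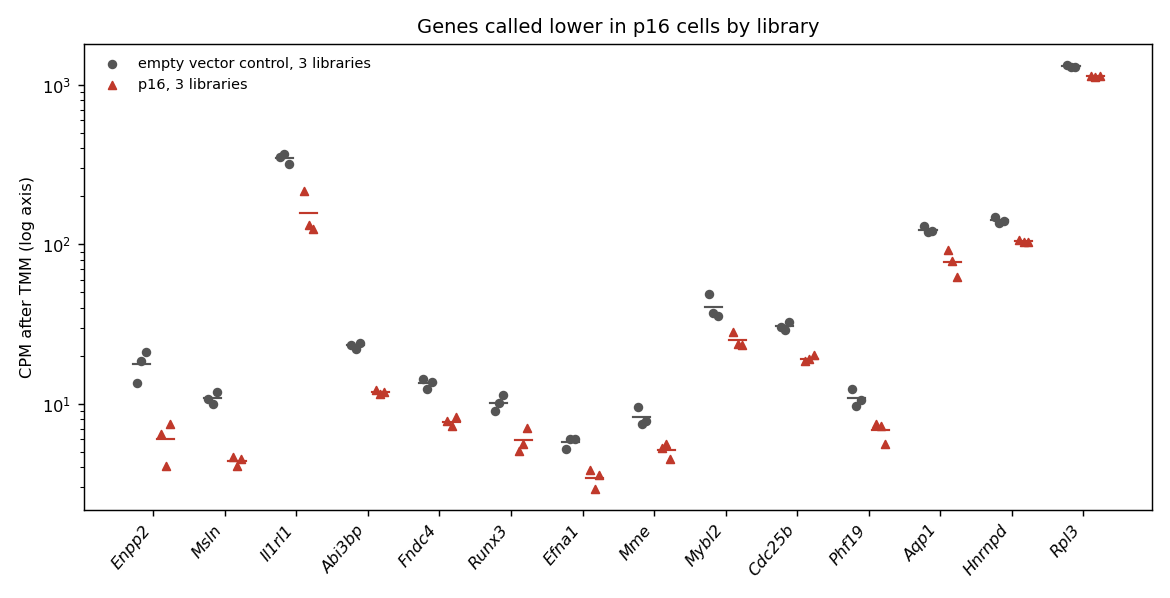
CPM after TMM normalisation, on a log axis, of 14 genes that fell in p16 cells, drawn as for the rising genes. Enpp2 falls 2.97-fold and Rpl3 1.16-fold, and for none of the 14 does a p16 library reach the control range.

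Signalling and stress lists held scattered calls. The Wnt list held 2.04% rises and 4.08% falls, near the 3.57% and 3.65% over all tested genes. Falls in the Notch and Hedgehog list (3.57%) and the TGF-beta and BMP list (3.85%) were likewise near that share. Of 28 Notch and Hedgehog genes 2 rose and 1 fell (2 and 5 with the block). The receptor gene Notch4 rose from 1.37, 2.61 and 2.29 to 5.78, 5.98 and 5.77 CPM (2.8-fold, adjusted p = 0.00587) while Notch1 fell from 48.5, 49.5 and 48.6 to 38.6, 40.3 and 36.5 CPM (1.27-fold, 0.00923). The Notch ligand gene Jag1 rose 1.16-fold (adjusted p = 0.02; 0.0524 to 0.0744 without each of control replicate 2 and p16 replicates 2 and 3). Of 52 TGF-beta and BMP genes 6 rose and 2 fell, with 11 rises and 5 falls under the block, and 0 without p16 replicate 2 and 1 without each of control replicates 2 and 3 and p16 replicates 1 and 3 for the rises and 0 without each of control replicate 2 and p16 replicates 2 and 3 and 1 without each of control replicates 1 and 3 and p16 replicate 1 for the falls. Of 49 Wnt genes 1 rose and 2 fell (4 and 3 with the block): Wnt5a by 1.23-fold (0.0148; 0.0543 without control replicate 2 and 0.0635 without p16 replicate 2), against its receptor gene Ror2, 1.25-fold lower (0.0127; 0.0543 without control replicate 2 and 0.0724 without p16 replicate 2), and Wnt10b, 1.41-fold lower (0.0153; 0.0599 to 0.076 without each of control replicate 2 and p16 replicates 1 and 2). The p53 gene Trp53 was not called (147, 132 and 126 and 126, 121 and 116 CPM, adjusted p = 0.141). Of 39 p53 targets 6 rose and none fell (median 0.04, 14 with the block, and 1 without each of control replicate 2 and p16 replicates 1 and 2 and 2 without each of control replicate 3 and p16 replicate 3). Trp53inp1, a stress-induced nuclear protein, was the one that kept its call throughout, at 34, 36.5 and 37.5 and 48.8, 50.7 and 45.3 CPM (1.34-fold higher, 0.00633). Of 32 cytosolic chaperone genes 5 rose and 1 fell (8 and 1 with the block, 1 without each of p16 replicates 1 and 2, 2 without control replicate 2 and 3 without p16 replicate 3 of the rises and 0 without each of control replicates 2 and 3 and p16 replicates 1, 2 and 3 of the falls), and Hspa1a, an inducible HSP70 whose near-identical copy Hspa1b can share its reads, rose from 7.43, 7.39 and 7.07 to 13.5, 12.5 and 12.4 CPM (1.75-fold, 0.00209).

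Metabolic lists held few calls. The glycolysis list gave 3.03% in each direction, near the 3.57% rises and 3.65% falls over all tested genes. Of 40 ATF4, serine and tRNA synthetase genes 6 fell and none rose (median -0.14, 10 with the block, and 1 without each of p16 replicates 1 and 2, 2 without each of control replicates 2 and 3 and p16 replicate 3 and 11 without control replicate 1). Vars, the valine tRNA synthetase, stood at 241, 229 and 224 and 188, 185 and 182 CPM (1.25-fold lower, adjusted p = 0.00669). Of 32 genes of the endoplasmic reticulum stress response 2 fell (5, and 2 rises, with the block), Creld2 by 1.21-fold (0.00776) and the chaperone gene Hspa5 by 1.15-fold (0.0277; 0.061 to 0.116 without each of control replicate 2 and p16 replicates 1, 2 and 3). Of 33 glycolysis and hypoxia genes 1 rose and 1 fell (2 and 3 with the block). Pfkfb3, which feeds the main control point of glycolysis, rose from 39.8, 42.1 and 38.8 to 54.3, 52.8 and 55.1 CPM (1.34-fold, 0.00988), and the lactate carrier gene Slc16a1 fell 1.39-fold (0.0217; 0.0637 to 0.0952 without each of control replicate 2 and p16 replicates 2 and 3). Among 38 cholesterol and fatty acid genes Hsd17b7 alone was called, 1.37-fold higher (0.00683), against 3 rises and 3 falls with the block, and 4 lower at an unadjusted p under 0.05. That rise is 2.63% of the list, below the 3.57% over all tested genes. Ephx2, a hydrolase of lipid epoxides, rose from 17.4, 16.6 and 14.9 to 24.4, 29.8 and 28.6 CPM (1.69-fold, 0.00523). Every p16 library lay above or below every control for these 7 genes.

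**Figure D5:**
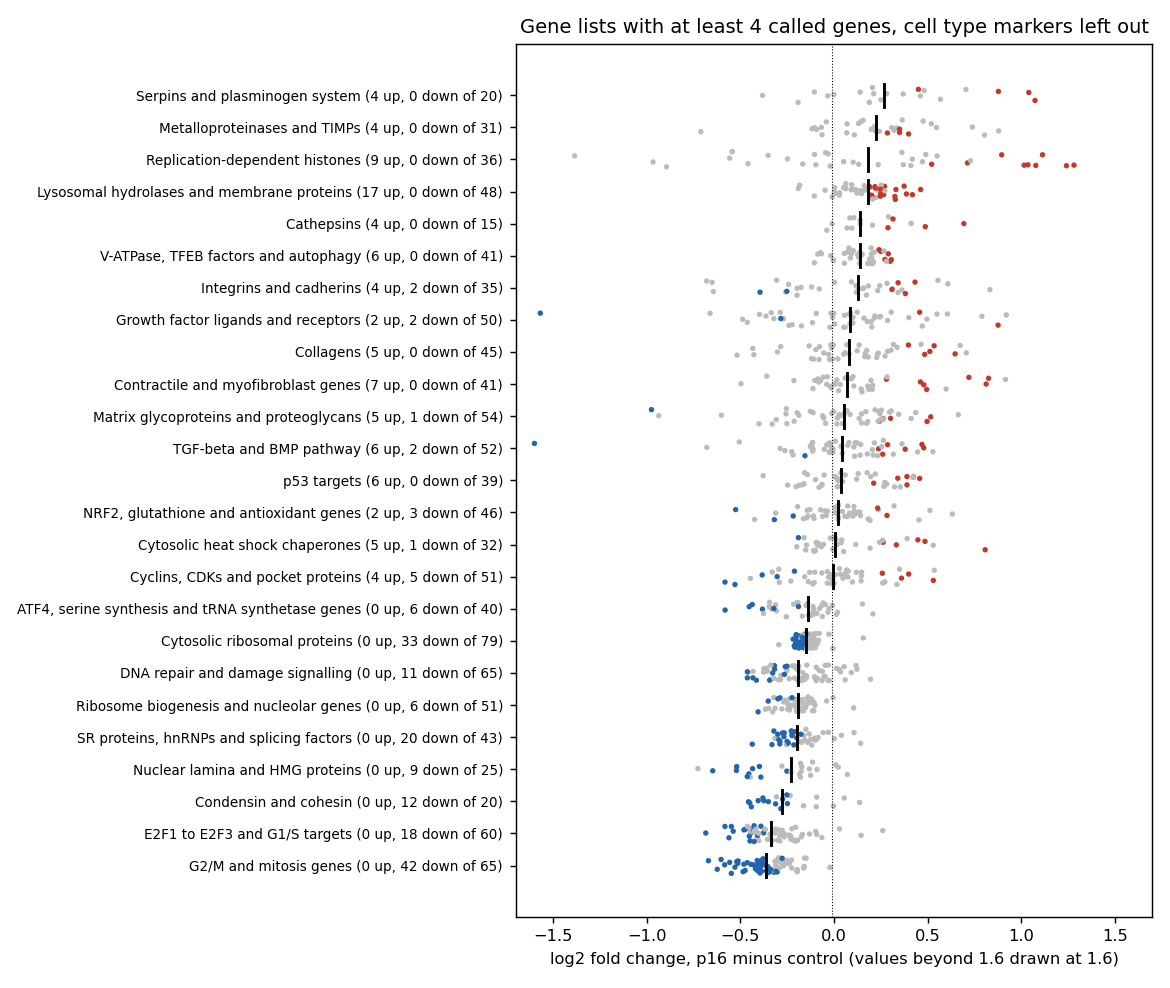
Log2 fold change of p16 minus control (horizontal) for each tested member of the 25 lists, cell type markers left out, with at least 4 called genes, ordered by their median (black bar), red where higher, blue where lower, grey where not called, with values beyond the limit named on the axis drawn at it; the dotted line is the median of all genes, -0.01. G2/M genes lie lowest with a median of -0.36 and 42 falls, and of these 25 the serpin list highest with a median of 0.27 and 4 rises.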

How the data were processed

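RNA of 9 libraries was sequenced. The authors deposited a table of read counts per gene symbol, whole numbers without normalisation, for 24062 genes. The submitters' processing notes name featureCounts 1.4.6, Subread, Bowtie2 2.2.6 and TopHat2 2.0.14, and the build mm10. The sources used here do not give the annotation, strand setting or handling of reads with several positions, so overlapping genes and near-identical copies (histones, Hspa1a, serpins, ribosomal proteins) are uncertain. Per the labels' protocols libraries came from column-extracted RNA and a TruSeq kit, version 2, that does not mark the strand.

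Groups and replicate numbers came from the titles. The 3 group means were fitted to all 9 libraries with edgeR 4.0.16 in R 4.3.3 (filterByExpr, TMM, quasi-likelihood F test, Benjamini-Hochberg adjustment over 14572 genes, threshold 0.05). The contrast was p16 minus control. The p21 libraries entered the filter, the TMM factors and the spread, with 6 residual degrees of freedom in all. With the 6 libraries alone 14268 genes were tested. SE is the absolute log2 fold change over the square root of F. Library totals were 60.8 to 76.1 M counts, so counting error is small beside the spread between libraries for all but low genes. Pairs within a group differed beyond sampling noise (chi-square per degree of freedom 10.64 to 105.1), and none was merged. The scripts were tested on simulated data.

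The comparison, its 59 gene lists and the rule for naming genes were chosen with earlier results of these data known. Named were a panel of senescence genes, the 15 largest changes in each direction at a mean log2 CPM of at least 2, the 10 lowest adjusted p and the 10 largest differences in level in each direction, falls of at least 2-fold, and up to 5 called members and the most abundant member of each list. Genes outside it (Cpeb1 to Cpeb4, cornified envelope genes, other RB pathway genes, neighbours of Cdkn2a, Kif22, Mcm5, Cdc6 and marker genes) were chosen after their values were seen.

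Library values less their group mean correlated between p16 and control replicates of equal number at 0.25, 0.11 and 0.55, all over 0.1. From the data alone, the replicate number was therefore used as a block in alternative fits. The fit behind the reported calls holds no such term. Control replicate 1 correlated slightly better with p16 replicate 2 (0.3), and control replicate 2 correlated with p16 replicate 1 at 0.061. The pairing of replicates 1 and 2 is thus not clear. Alternatives were other scalings, DESeq2 1.42.0, other filters, the 6 libraries alone, the replicate block, a term for replicate 3, and leaving out each library or replicate 3 of all groups.

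Positions were taken from GENCODE M21 (GRCm38), and promoters from RefSeq on GRCm38.p6. Of the tested genes 78.1% matched a promoter. A match of motif letters is a description.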

Additional observations from a re-analysis of the deposited data

How the results depend on the processing

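No called gene changed its direction under any of the 16 alternatives. As no called gene overlapped between the groups, leaving out libraries could hardly reverse one, so this is no support for the calls. Called genes numbered 1052 as reported, 1808 with DESeq2 (932 higher, 876 lower), 555 with the 6 libraries alone (299 and 256) and 593 with replicates 1 and 2 only (340 and 253). The replicate block gave 2473 calls in 9 libraries (1252 and 1221) and 2029 in 6 (1089 and 940), and a term for replicate 3 gave 2645 (1322 and 1323). Leaving out each library in turn gave 222 to 873 calls, 156 to 488 higher and 66 to 385 lower, with the lowest without p16 replicate 2 and the highest without control replicate 1. Fewer libraries leave fewer degrees of freedom, and the lone pair in the reduced group is assumed to vary like the other groups. The cause of the other shifts was not tested. Scaling by library size (1127) or upper quartile (1111), no filter (908) and a filter of 1 CPM in 3 libraries (1217) stayed within 1.5 times. No scaling moved the median of all genes by more than 0.022 on the log2 scale. Cdkn2a was 15.7 to 16.9-fold higher throughout. Of 216 named genes that were called, 81 kept their call in every alternative. The block kept all 216 in 9 libraries and 214 in 6. Over all genes the block in 6 libraries kept 502 of the 520 rises and 505 of the 532 falls. With the 6 libraries alone the counts of the larger lists fell to 10 for G1/S targets, 5 for histones, 8 for lysosomal hydrolases, 12 for splicing factors and 5 for ribosomal proteins, and DESeq2 gave 33 falls for G1/S targets and 19 for repair genes. Of 75 named genes not called, 23 gained a call somewhere, and those the text describes are given there. Genes under about 1 CPM, 30 of the calls, are the least certain at this depth.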

Other observations

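All 4 genes of the CPEB family, proteins that control the poly(A) tail and translation of messages, rose in p16 cells. The family was chosen after its values were seen. Cpeb1 stood at 7.82, 8.09 and 8.05 CPM in control and 13.9, 14.6 and 12.2 CPM in p16 libraries (1.7-fold higher, 0.77 ± 0.08 SE, adjusted p = 0.00256) and kept its call in every alternative. Cpeb2 rose 1.31-fold (adjusted p = 0.0201), Cpeb3 1.5-fold (0.0378) and Cpeb4 1.27-fold (0.0362). These 3 lost their calls when single libraries were left out: Cpeb2 at 0.0586 to 0.0859 without each of control replicate 2 and p16 replicates 1 and 2, Cpeb3 at 0.0715 to 0.133 without each of control replicates 1, 2 and 3 and p16 replicates 1, 2 and 3 and Cpeb4 at 0.0521 to 0.124 without each of control replicates 1, 2 and 3 and p16 replicates 1 and 2. In all 4 genes every p16 library lay above every control.

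Some genes of the cornified envelope, the cross-linked shell of keratinocytes, rose at low levels, and were likewise picked after their values were seen. Of 8 tested genes with an Sprr or Lce symbol 3 rose and none fell, and all 8 had a positive log2 fold change. The envelope genes Lor, Evpl, Ppl and Tgm1 were not called (log2 fold changes 0.51, -0.29, -1.02 and -0.49, adjusted p = 0.368, 0.64, 0.162 and 0.659). Sprr2k stood at 5.58, 4.38 and 4.94 and 10.8, 9.06 and 10.2 CPM (2.02-fold higher, adjusted p = 0.00681). Crct1 rose 2.17-fold to 3.57, 3.54 and 2.96 CPM (adjusted p = 0.0226; 0.0769 to 0.0862 without each of control replicate 2 and p16 replicates 1 and 2), and Sprr1a 1.67-fold (0.0407; 0.067 to 0.111 without each of control replicates 1 and 3 and p16 replicates 1, 2 and 3). Ivl, involucrin, and Lce1f rose 3.59 and 3.38-fold at 0.909 ± 0.273 and 1.44 ± 0.366 CPM in p16 cells (mean ± SD, n = 3; adjusted p = 0.0409 and 0.0153; 0.0524 to 0.128 without each of control replicates 2 and 3 and p16 replicates 1, 2 and 3, and 0.0546 without p16 replicate 1). The 18 epithelial markers summed to 74.9 to 129 CPM in control and 71.6 to 106 CPM in p16 libraries, 14 of them stayed under 1 CPM in every library, and Esrp1 had no read. Their part in these rises was not tested. Dsp, desmoplakin, was the only epithelial marker called (1.87-fold higher, adjusted p = 0.0447; 0.0928 to 0.155 without each of control replicates 2 and 3 and p16 replicates 1 and 2).

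Of 37 HOX genes none was called (2 higher at an unadjusted p under 0.05, 1 with DESeq2, and 4 higher and 1 lower with the block). Of 28 imprinted genes Impact alone was called, 1.36-fold higher, from 64.3 ± 5.17 to 87.3 ± 2.64 CPM (mean ± SD, n = 3, adjusted p = 0.00776), against 2 rises and 3 falls with the block. This rise is 3.57% of the list, the same as the 3.57% of rises over all tested genes. Among 11 nerve and Schwann cell markers Gap43, a growth cone protein, fell from 7.55, 6.77 and 8.16 to 4.64, 4.97 and 5.03 CPM (1.53-fold, adjusted p = 0.00923; 2 falls and 1 rise with the block).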
